A study of Mus musculus with 8 samples.

Results

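The genes described here are 10 genes of sterol sensing and cholesterol export: the liver X receptors (LXR) Nr1h3 and Nr1h2, the peroxisome proliferator-activated receptors (PPAR) Pparg and Ppard, their partner Rxra, the exporters Abca1 and Abcg1, the ubiquitin ligase gene Mylip, and Npc1 and Npc2 of the lysosome. They were taken by symbol from the 55414 genes of the deposited count table, and all 10 were found. RNA was sequenced from F4/80 bead-selected cells of mouse wound-bed skin, labelled macrophages, with 5 libraries (a to e) from day 3 after injury and 3 libraries (a to c) from day 1. Each library pooled 6 wounds from 3 mice, and the labels give no strain, sex, age, genotype or treatment beyond the wound. The comparison asked which genes differed between day 3 and day 1, 2 times in early wound inflammation. The protocol states 6 samples per time, more than the libraries of either day here. Whether pools shared mice is not stated, and the p-values reflect variation among pools only.

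LXRs are nuclear receptors for oxidised cholesterol. They sit on DNA as pairs with retinoid X receptors, and when bound by ligand they switch on genes that move cholesterol out of the cell. PPARs use the same partners, bind fatty acids and their derivatives, and in macrophages are known for lipid uptake, lipid burning and damping of inflammatory genes. A macrophage that engulfs dead cells receives their cholesterol in the lysosome, where NPC2 and NPC1 pass it to the cytosol, and ABCA1 and ABCG1 can then export it.

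The libraries held between 41566151 and 60289310 counts. Macrophage markers summed to between 29219 and 36232 CPM (counts scaled to library size) at day 3 and between 17670 and 20393 CPM at day 1, and Adgre1, which encodes F4/80, was at 1129 ± 76.3 CPM at day 3 and 819 ± 126 CPM at day 1 (SD, n = 5 and 3). Lyz2, the most abundant of the 10 macrophage markers, averaged 19781 CPM at day 3 and 8167 CPM at day 1. The markers did not all move alike. Fcgr1 averaged 433 CPM at day 3 and 845 CPM at day 1. Csf1r, Mertk and Mrc1 were also lower on average at day 3, and Cd68, C1qa, C1qb and C1qc were higher. The days overlapped for Csf1r, Mertk, Mrc1, Cd68 and C1qa. Day 1 c was the highest library in Csf1r, at 637 CPM, and the lowest in Cd68, at 1787 CPM. Genes with a count numbered 14952 to 15359 in day 3 b to e and 20557 in day 3 a, against 23928 to 27315 in the day 1 libraries, so this measure ran with the days, and its part in the results was not tested. Day 3 a stood apart from its day in it, and day 3 b, day 1 c and day 1 a stood apart in other ways. Day 3 b carried neutrophil markers at 3773 CPM, against 451 to 680 CPM in the other day 3 libraries. Day 1 c carried them at 4021 CPM and lay at one end of the second principal component, and day 1 a, with 849 CPM, lay at one end of the first. Markers of adipocytes and sebocytes, skin cells that also express Pparg, were low. Adipocyte markers summed to 7.81 to 26.5 CPM at day 3 and 6.74 to 11.1 CPM at day 1, sebocyte markers to 1.52 to 19.9 CPM at day 3 and 0.619 to 8.86 CPM at day 1. Fewer cells of a type and less RNA per cell cannot be told apart in such pooled samples.

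None of the 10 genes passed the test between the days. All 10 were tested, and 0 had an adjusted p under 0.05 in the edgeR quasi-likelihood test over 15371 genes, with adjusted p between 0.208 and 0.948. Of all genes tested, 0.013% were called. At an unadjusted p under 0.05 there were 2 of the 10, Abca1 on the higher side at day 3 and Nr1h2 on the lower side, where 15.7% of all genes lay. DESeq2 and limma voom also called 0 of the 10, where they called 6.64% and 5.37% of all genes. For 3 genes the day 3 and day 1 ranges of normalised CPM were separate, where 14.1% of all genes had separate ranges. These were Abca1, higher at day 3 as were 5.31% of all genes, and Nr1h2 and Ppard, lower as were 8.76%. There were 5 such genes without day 1 c (24.4% of all genes) and 5 without day 3 b (18.4%). The fold changes split evenly, 5 above 0 and 5 below, where 42.9% of all genes lay above 0, with a median log2 fold change of 0.21, beside -0.17 over all genes tested. Whether these counts differ from those of other genes was not tested.

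Promoters are shown for Abca1 and Nr1h2, the 2 genes at an unadjusted p under 0.05, which lay on opposite sides. Both are the 250 bases before the annotated start site, 5′ to 3′ on the gene's strand, from RefSeq on GRCm38.p6 (the counts themselves are on GRCm39). In Abca1, on the minus strand at chr4:53159896-53160145, the capitals mark the single match to the hexamers NGGTNA and NGGTCA with 4 bases between them. That pattern is a relaxed spelling of the LXR element, AGGTCA repeated after 4 bases. In Nr1h2, on the minus strand at chr7:44553966-44554215, the capitals mark CCGGAA on either strand, a core recognised by ETS-family transcription factors.
Abca1: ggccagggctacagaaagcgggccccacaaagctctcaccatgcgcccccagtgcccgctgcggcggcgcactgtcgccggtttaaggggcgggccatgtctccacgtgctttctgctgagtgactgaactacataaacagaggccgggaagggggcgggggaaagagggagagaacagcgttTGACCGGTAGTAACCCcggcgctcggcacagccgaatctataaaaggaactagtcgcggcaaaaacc
Nr1h2: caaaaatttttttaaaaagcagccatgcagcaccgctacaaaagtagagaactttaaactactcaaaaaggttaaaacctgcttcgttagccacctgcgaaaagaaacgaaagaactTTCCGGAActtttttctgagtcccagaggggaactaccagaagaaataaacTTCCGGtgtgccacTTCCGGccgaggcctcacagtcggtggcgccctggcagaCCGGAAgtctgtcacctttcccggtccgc

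Read on the other strand, the Abca1 match is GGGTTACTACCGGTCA, lying between 67 and 52 bases before the start site. Both strands were searched in windows of 300 bases, 250 before and 50 after the start. The relaxed form was in 0.207% of 32851 such windows of mouse genes, and the exact form, with AGGTCA in both places, in 0.0152%. Of the 10 genes, 8 had a window, 12 windows in all (Abcg1 and Npc1 had none), and the relaxed form was found in Abca1 alone among these 8. The PPAR form, AGGTCA repeated after 1 base, was in 0.0396% of all windows, and neither exact form was in any of the 12. The single hexamer AGGTCA, which the longer forms contain, was in 3 of the 12, belonging to Pparg and Rxra, and in 16.3% of all windows. CCGGAA was in 4 of the 12, belonging to Nr1h2, Nr1h3 and Npc2, and in 14.9% of all windows. The Nr1h2 window held it 8 times over both strands, counting overlapping matches of the palindrome TTCCGGAA on each strand. Of these, 5 lie in the 250 bases printed above and the rest after the start site. With the Nr1h2 window among them, 2 of the 32851 windows held 8 or more. The relaxed pattern and CCGGAA were chosen after these sequences had been seen, and a match is no evidence of binding.

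Among the LXR genes, Nr1h2 was lower in every day 3 library than in any day 1 library, and Nr1h3 was at similar mean levels. Nr1h2 (ENSMUSG00000060601, GRCm39 chromosome 7, 44199040 to 44203375, minus strand) encodes LXR beta, the form found in most tissues. It was at 26.5, 32.4, 40.4, 43.0 and 39.7 CPM in day 3 a to e, against 48.9, 44.6 and 97.9 CPM in day 1 a to c. The days did not overlap, although the gap between day 3 d and day 1 b was small and day 1 c stood far above the rest. The log2 fold change was -0.81 ± 0.29 (SE; unadjusted p = 0.0209, adjusted p = 0.208 by edgeR), and -0.37 without day 1 c. That library also had the highest neutrophil marker sum of all 8, whose part in the value was not tested.

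Nr1h3 (ENSMUSG00000002108, chromosome 2, 91014406 to 91033179, minus strand) encodes LXR alpha, which is prominent in macrophages and liver. It was at 48.1, 26.4, 25.3, 58.5 and 39.1 CPM in day 3 a to e and at 52.9, 50.3 and 25.5 CPM in day 1 a to c. High and low libraries occurred on both days, and the days overlapped almost fully. Nr1h3 had a log2 fold change of -0.12 ± 0.35 (adjusted p = 0.918 by edgeR), with a sign that turned when day 1 a, day 1 b or day 3 c was left out. Of its 2515 exon bases, 34 are shared with the predicted gene Gm13783. Per length of exon, Nr1h3 stood to Nr1h2 at 0.836 to 2.42 in day 3 libraries against 0.348 in day 1 c and 1.44 in day 1 a, with day 1 b close to day 1 a.

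The PPAR genes lay on opposite sides, with Pparg higher on average at day 3 and Ppard lower. Pparg (ENSMUSG00000000440, chromosome 6, 115337912 to 115467360, plus strand) encodes PPAR gamma, the lipid receptor of adipocytes and of alternatively activated macrophages. It was at 78.8, 28.9, 60.4, 44.4 and 38.5 CPM in day 3 a to e, against 34.0, 36.5 and 7.30 CPM in day 1 a to c. Day 3 b lay inside the day 1 range, and day 1 c, from 401 counts, was the lowest of all. Pparg had a log2 fold change of 0.95 ± 0.52 (adjusted p = 0.427 by edgeR), and 0.52 without day 1 c.

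Ppard (ENSMUSG00000002250, chromosome 17, 28451674 to 28520448, plus strand) encodes PPAR delta, a broadly expressed receptor of fatty acid use. It was at 2.32, 3.25, 1.38, 2.41 and 3.75 CPM in day 3 a to e, against 8.41, 5.91 and 4.50 CPM in day 1 a to c. The days did not overlap, and the counts behind these values ran from 70 to 197 at day 3 and from 247 to 354 at day 1. Ppard had a log2 fold change of -1.26 ± 0.65 (adjusted p = 0.400 by edgeR). Per length, Pparg stood to Ppard at 86.5, 22.6, 112, 46.9 and 26.1 in day 3 a to e and at 10.3, 15.7 and 4.13 in day 1 a to c. This ratio was higher in each day 3 library than in any day 1 library, and it was not tested.

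Rxra (ENSMUSG00000015846, chromosome 2, 27566452 to 27652969, plus strand) encodes a retinoid X receptor with which both kinds of receptor pair. It was at 8.58, 17.7, 6.57, 10.8 and 9.13 CPM in day 3 a to e and at 4.08, 0.934 and 7.97 CPM in day 1 a to c. Day 3 b was the highest and day 1 b, with 56 counts, the lowest, and day 1 c lay above day 3 c. The log2 fold change of 1.29 ± 0.71 was the largest of the 10 above 0 and did not pass (adjusted p = 0.437 by edgeR). It was 2.08 without day 1 c and 0.81 without day 1 b. Rxrb, another retinoid X receptor gene, is named here after its values were seen. It averaged 3.45 ± 2.01 CPM at day 3 and 6.55 ± 3.82 CPM at day 1. Its log2 fold change was -0.92 ± 0.74 (adjusted p = 0.626 by edgeR), and the days overlapped.

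**Figure D1:**
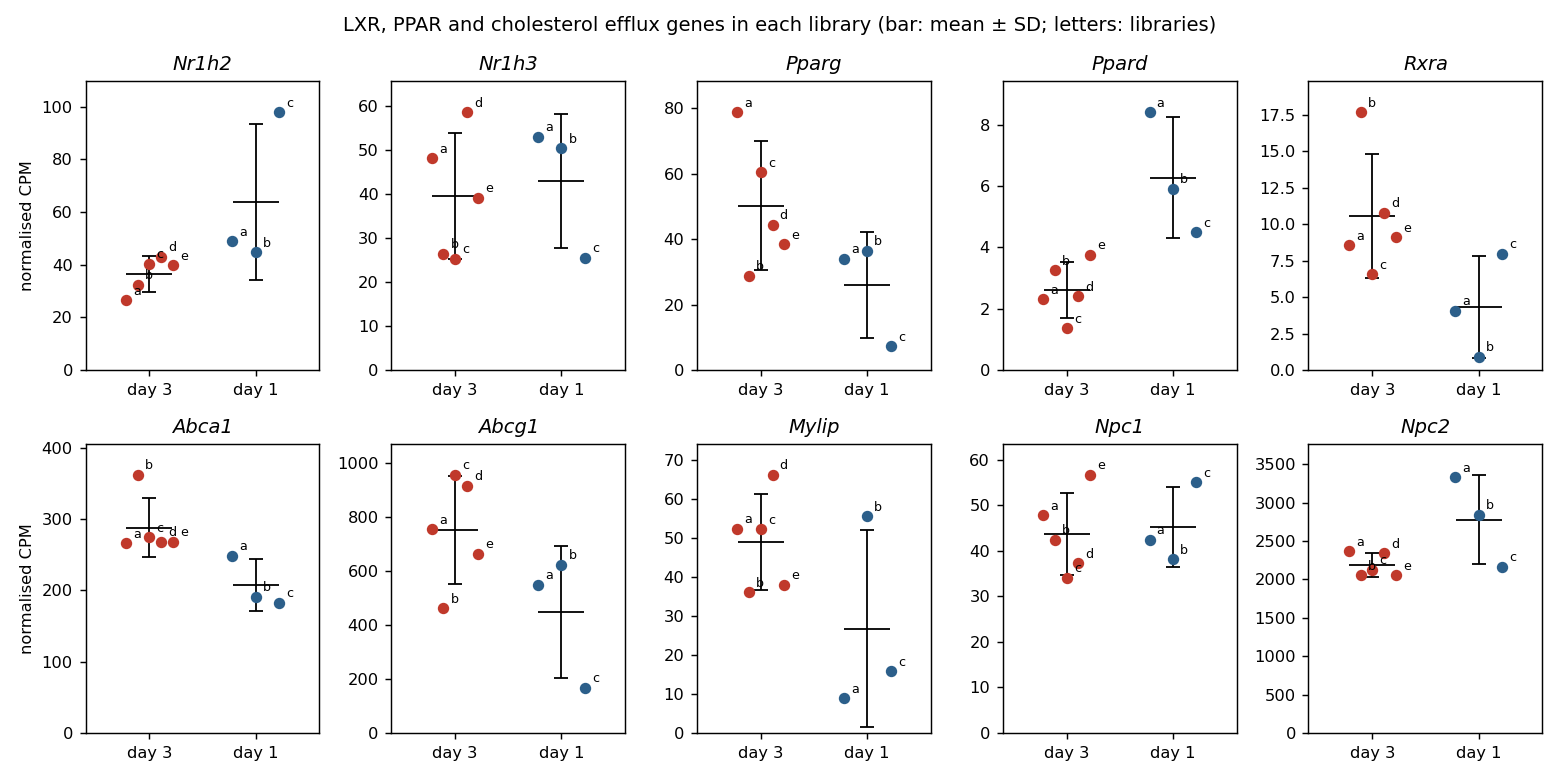
Normalised CPM of each gene, 1 panel per gene, with day 3 left of day 1; each point is 1 library with its letter, and the bar is the mean ± SD (n = 5 and 3). The days do not overlap for Nr1h2, Ppard and Abca1, and day 1 c is far from the other day 1 libraries for Nr1h2, Pparg and Abcg1.

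Both exporter genes were higher on average at day 3, by amounts that did not pass the test. Abca1 (ENSMUSG00000015243, chromosome 4, 53030787 to 53159895, minus strand) encodes the transporter that loads cholesterol and phospholipid on lipid-poor apolipoprotein A-I, and it is a classical LXR target. It was at 266, 362, 275, 268 and 268 CPM in day 3 a to e, against 249, 191 and 183 CPM in day 1 a to c. Without day 3 b the day 3 libraries lay within 9 CPM of each other, and the lowest of them exceeded the highest of day 1 by a small margin. The log2 fold change was 0.47 ± 0.18 (unadjusted p = 0.0245, adjusted p = 0.227 by edgeR), and 0.38 without day 3 b. Day 3 b was also the day 3 library with the high neutrophil markers, whose part in its level was not tested.

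Abcg1 (ENSMUSG00000024030, chromosome 17, 31276649 to 31336962, plus strand) encodes the transporter that passes cholesterol to high-density lipoprotein, and it too is induced by LXR. It was at 754, 462, 956, 916 and 663 CPM in day 3 a to e, against 549, 623 and 167 CPM in day 1 a to c. Day 1 c was the lowest of all 8 libraries and day 3 b the lowest of its day, inside the day 1 range. Abcg1 had a log2 fold change of 0.75 ± 0.40 (adjusted p = 0.421 by edgeR), and 0.36 without day 1 c. With no filter on low counts the call was reached, at 0.77 ± 0.20 with an adjusted p of 0.0101 by edgeR, a setting under which 3.5% of all genes were called. DESeq2 and limma voom did not call it, with adjusted p of 0.287 and 0.219.

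Mylip (ENSMUSG00000038175, chromosome 13, 45543218 to 45565498, plus strand) encodes IDOL, an LXR-induced ubiquitin ligase that limits cholesterol uptake. It was at 52.4, 36.1, 52.2, 66.2 and 38.0 CPM in day 3 a to e, against 8.94, 55.5 and 15.8 CPM in day 1 a to c. Day 1 b lay among the day 3 values, and the other day 1 libraries lay below all of them. Mylip had a log2 fold change of 0.87 ± 0.53 (adjusted p = 0.493 by edgeR). Without day 1 b it was 1.99 ± 0.38 (adjusted p = 0.0674 by edgeR), the lowest adjusted p among its alternatives, which reached 0.738.

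The lysosomal genes had small fold changes, both below 0. Npc2 (ENSMUSG00000021242, chromosome 12, 84801336 to 84819926, minus strand) encodes the soluble protein that takes cholesterol up inside the lysosome. It was at 2367, 2057, 2126, 2344 and 2055 CPM in day 3 a to e, against 3328, 2846 and 2164 CPM in day 1 a to c. The day 3 libraries lay close together and day 1 c lay among them, while day 1 a and b were higher. Npc2 had a log2 fold change of -0.34 ± 0.17 (adjusted p = 0.367 by edgeR). Npc1 (ENSMUSG00000024413, chromosome 18, 12322749 to 12369457, minus strand) encodes the membrane protein that receives cholesterol from NPC2. It was at 47.8, 42.4, 34.1, 37.2 and 56.7 CPM in day 3 a to e and at 42.4, 38.2 and 55.1 CPM in day 1 a to c. The days overlapped and the log2 fold change was -0.05 ± 0.23 (adjusted p = 0.948 by edgeR). Of its 11317 exon bases, 601 are shared with Rmc1 and the predicted gene Gm15956.

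**Figure D2:**
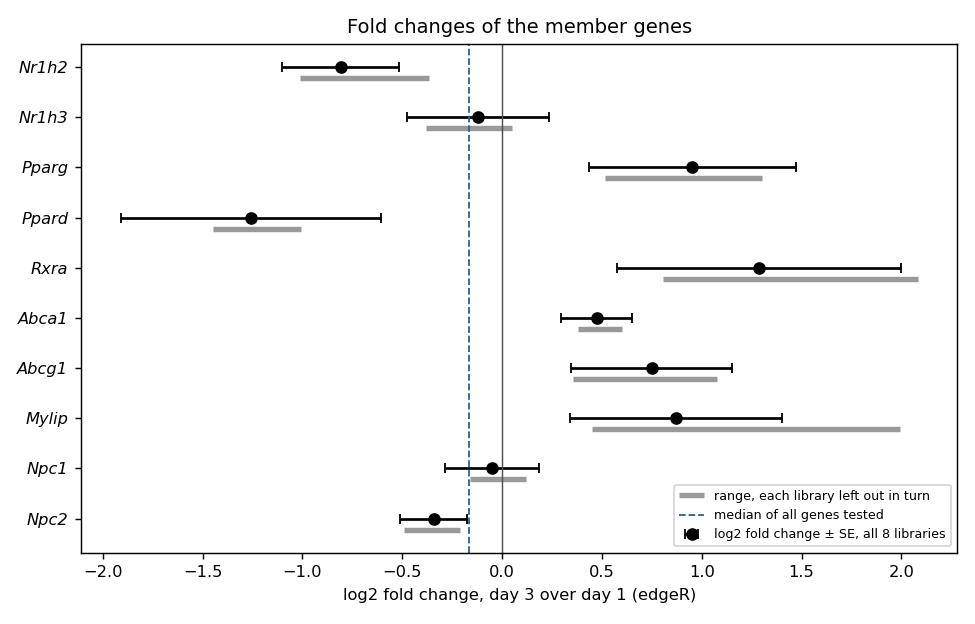
Log2 fold change, day 3 over day 1, for each gene: points with bars are the edgeR estimate ± SE from all 8 libraries, and grey bars span the estimates with each library left out in turn. The grey bars cross 0 for Nr1h3 and Npc1, and are widest for Mylip (0.45 to 1.99) and Rxra (0.81 to 2.08).

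Levels were compared between genes as normalised CPM per kilobase of merged exon length. At day 3, Npc2 led with 403 ± 28.3, followed by Abcg1 with 103 ± 27.4 and Abca1 with 27.8 ± 4.01 (SD, n = 5). At day 1 the same genes had the highest means, with Npc2 at 511 ± 108, Abcg1 at 61.1 ± 33.5 and Abca1 at 20.02 ± 3.48 (SD, n = 3). Of the receptors at day 3, Pparg was at 17.0 ± 6.65 and Nr1h3 at 15.7 ± 5.65, with Mylip at 15.1 ± 3.80, and these 3 lay within 1 SD of each other. Nr1h2 followed at 10.9 ± 2.03. At day 1 Nr1h2 was at 19.0 ± 8.83, Nr1h3 at 17.1 ± 6.01 and Pparg at 8.79 ± 5.49. On that day Abca1, Nr1h2 and Nr1h3 lay within 1 SD of each other, so their order is not settled. Npc1 followed with 3.86 ± 0.793 at day 3 and 3.99 ± 0.777 at day 1. Rxra, at 1.67 ± 0.677 at day 3 and 0.687 ± 0.559 at day 1, and Ppard, at 0.349 ± 0.122 at day 3 and 0.834 ± 0.264 at day 1, were the lowest on both days. Within a library, Abcg1 stood above Abca1 by a factor of 1.81 to 4.94 at day 3 and 1.30 to 4.63 at day 1. Npc2 stood above Npc1 by 75.5 to 131 at day 3 and 81.8 to 163 at day 1. Merged length counts the exons of all annotated isoforms, so a gene with a short main transcript and long rare ones is understated.

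**Figure D3:**
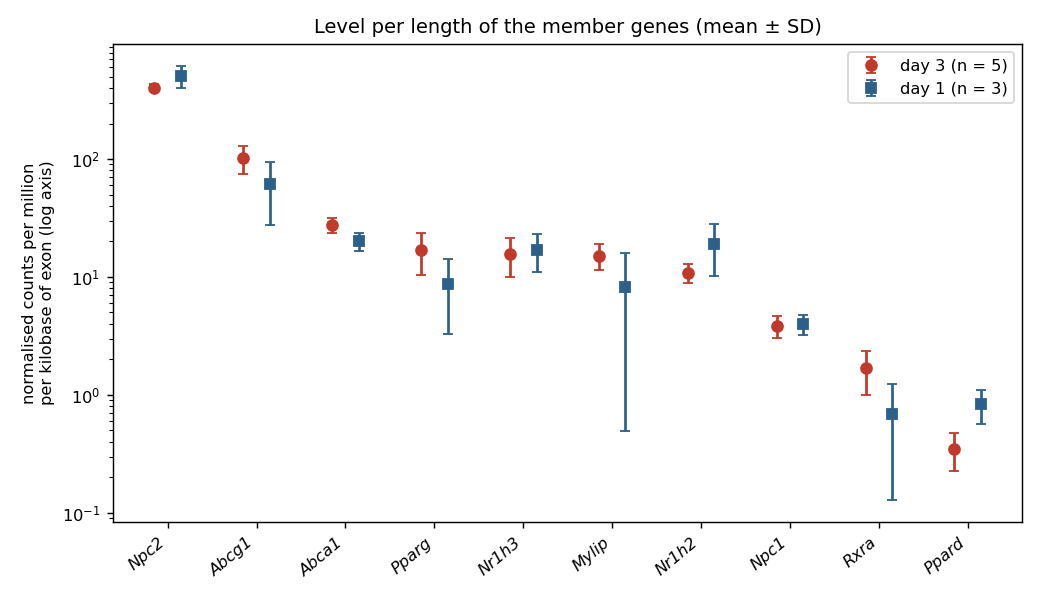
Mean ± SD of normalised CPM per kilobase of exon for each gene on a log axis, day 3 (circles, n = 5) left of day 1 (squares, n = 3), in order of the day 3 level. Npc2 is the highest and Ppard and Rxra are the lowest on both days.

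The libraries of 1 day differed in these genes, and some genes did so together. Among deviations of log2 CPM from the day mean over 8 libraries, Pparg and Abcg1 had a Pearson r of 0.92, the highest of the 45 pairs, and 0.68 over 7 libraries without day 1 c. Both were lowest within their day in day 1 c and in day 3 b, the libraries with the highest neutrophil markers of each day, whose part in the values was not tested. Nr1h2 and Pparg had the lowest r, -0.81, and -0.35 without day 1 c. Rxra and Abca1 had 0.31 over all 8 and 0.86 without day 1 c. Rxra and Mylip had -0.76 over all 8 and -0.86 without it. When day 1 c is left out, the deviations of day 1 a and b are equal and opposite by construction. They then act as 1 contrast, so the r values without day 1 c rest on fewer independent points than libraries. All values share library totals and scaling, so these are descriptions of the libraries. Within a day, the highest library exceeded the lowest by a factor of 1.15 for Npc2 and 1.36 for Abca1 at day 3, and of up to 8.53 for Rxra and 6.21 for Mylip at day 1.

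**Figure D4:**
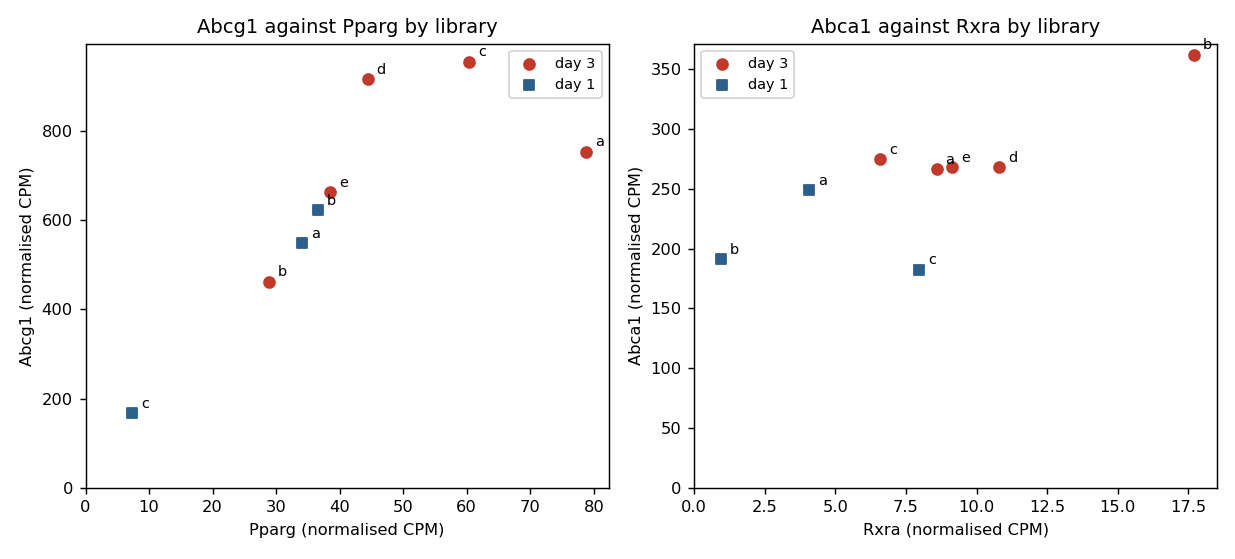
Normalised CPM of Abcg1 against Pparg (left) and of Abca1 against Rxra (right); each point is 1 library with its letter, day 3 as circles and day 1 as squares. Day 1 c is the lowest in both Pparg and Abcg1, and day 3 b is the highest in both Rxra and Abca1.

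Genes with the closest pattern were sought over the 8 libraries among 7911 tested genes with a symbol and a mean of 5 CPM or more, by Pearson r of log2 CPM. For Pparg these were Sdhb, a subunit gene of succinate dehydrogenase (r = 0.99), the surface receptor gene Cd48 (0.97) and Tma7 (0.97). Each was lowest in day 1 c, as was Pparg, and r without that library was not calculated. For Abca1 they were Jmy (0.96), the transporter gene Abcc5 (0.95) and Pttg1ip (0.95), each highest in day 3 b, as was Abca1. For Nr1h3 they were Atf7ip (0.98), Tmem230 (0.96) and Cep350 (0.93), and for Npc2 the RNA helicase gene Ddx39 (0.98), Taf7 (0.97) and Nup93 (0.96). These values carry no test, and the libraries share 8 totals and scaling factors.

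Other genes of the pathway were counted in 4 lists, and 0 of their 58 tested members passed by edgeR. At an unadjusted p under 0.05 there were 5 on the higher side at day 3, where 5.16% of all genes lay, and 4 on the lower side, where 10.5% of all genes lay. Of 12 further LXR targets, all tested, 4 were on the higher side and 1 on the lower at that level, with a median log2 fold change of 0.17. Apoe, the lipid carrier that accepts exported cholesterol, was at 25942, 28582, 27155, 28865 and 29652 CPM in day 3 a to e, against 7813, 13219 and 5140 CPM in day 1 a to c. All day 3 libraries lay far above all of day 1. Its log2 fold change was 1.68 ± 0.29 (adjusted p = 0.0620 by edgeR), and it was called by DESeq2 (adjusted p = 4.68e-07), by limma voom (0.0108) and with the stricter filter on low counts by edgeR (0.0263), where 1.79% of all genes were called.

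Lpl, encoding lipoprotein lipase, averaged 532 ± 268 CPM at day 3 and 204 ± 125 CPM at day 1 (log2 fold change 1.38 ± 0.51, adjusted p = 0.217 by edgeR, and 0.0429 by DESeq2). Smpdl3a, a sphingomyelinase-like phosphodiesterase gene, averaged 369 ± 56.8 CPM at day 3 and 244 ± 75.2 CPM at day 1 (0.60 ± 0.22, adjusted p = 0.217 by edgeR). Arl4c, a small GTPase gene, lay on the other side, with 101 ± 15.4 CPM at day 3 and 199 ± 110 CPM at day 1, where day 1 c reached 325 CPM (-0.98 ± 0.30, adjusted p = 0.135 by edgeR, and 0.0425 by DESeq2). The days did not overlap for Arl4c. Pltp, a phospholipid transfer protein gene named here after its values were seen, was the remaining one (0.53 ± 0.21, adjusted p = 0.242 by edgeR).

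Of 12 PPAR targets, 11 were tested, and 1 had an unadjusted p under 0.05, with a list median of 0.05. That was Fabp5, a fatty acid binding protein gene, at 165 ± 30.6 CPM at day 3 and 308 ± 169 CPM at day 1 (log2 fold change -0.91 ± 0.30, adjusted p = 0.174 by edgeR). Day 1 c, at 502 CPM, was again the high library. Cd36, encoding a fatty acid and lipoprotein scavenger receptor, was reached by edgeR with no filter on low counts (adjusted p = 0.0159) and had an adjusted p of 0.493 with the default filter. It is named after its values were seen.

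Of 21 genes of sterol uptake, storage and transfer, 20 were tested, with 1 on the higher and 2 on the lower side at an unadjusted p under 0.05 and a median of -0.35. Cyp27a1, encoding sterol 27-hydroxylase, which makes an oxysterol ligand of LXR, was at 13.5, 16.2, 31.1, 25.7 and 34.9 CPM in day 3 a to e, against 2.79, 3.24 and 10.1 CPM in day 1 a to c. The days did not overlap, with a log2 fold change of 2.17 ± 0.57 (adjusted p = 0.0907 by edgeR, and 0.00257 by DESeq2). Tspo, encoding a mitochondrial protein that binds cholesterol, was at 608 ± 39.2 CPM at day 3 and 815 ± 55.9 CPM at day 1, also without overlap (-0.42 ± 0.13, adjusted p = 0.147 by edgeR, and 0.0234 by DESeq2).

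Of 17 receptor partners and coregulators, 15 were tested and 0 had an unadjusted p under 0.05, with a median of -0.29. Gps2, a corepressor subunit gene, averaged 48.4 ± 9.05 CPM at day 3 and 39.5 ± 5.25 CPM at day 1, and Med1, a Mediator subunit gene, 82.2 ± 11.3 CPM at day 3 and 100.3 ± 13.02 CPM at day 1. Ppara and Rxrg, the remaining PPAR gene and an RXR gene, were among the genes not tested for low counts.

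**Figure D5:**
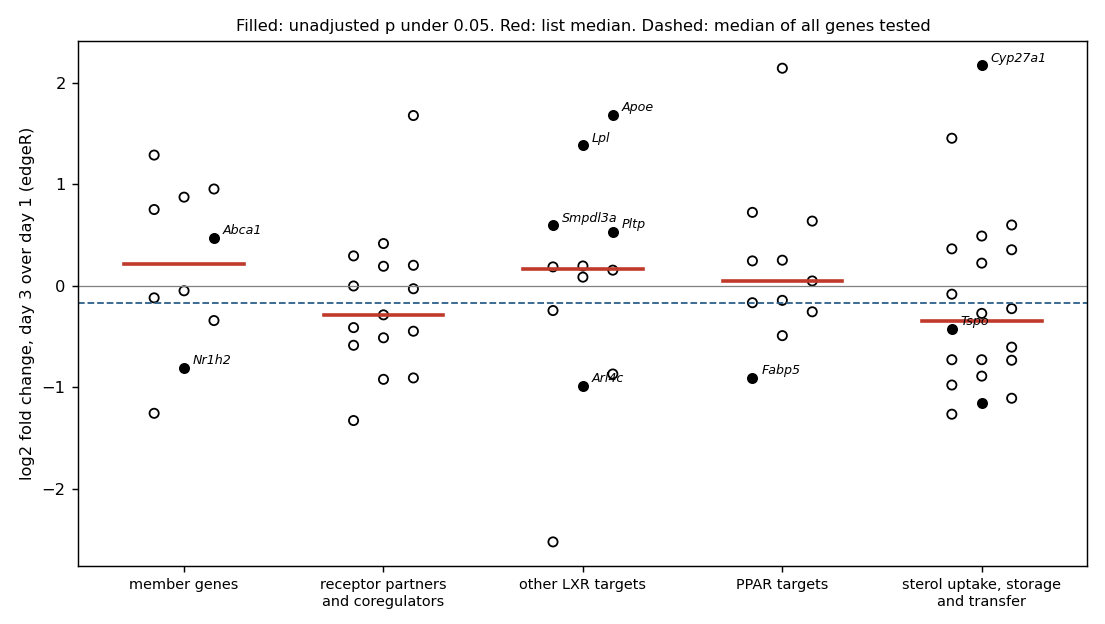
Log2 fold change, day 3 over day 1, by edgeR for the 10 genes and for the tested members of 4 lists; filled points have an unadjusted p under 0.05 (1 is drawn without its name), red bars are list medians and the dashed line is the median of all genes tested (-0.17). No gene shown passed after adjustment over all genes.

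Markers of other cells differed beside these values. Fibroblast markers summed to 73.5 to 151 CPM at day 3 and 9.99 to 39.7 CPM at day 1, B and plasma cell markers to 105 to 213 CPM at day 3 and 32.5 to 103 CPM at day 1, and inflammatory monocyte markers to 3155 to 4273 CPM at day 3 and 4317 to 5878 CPM at day 1. The macrophage marker sum was higher at day 3, as given above. Of that list, Fcgr1, Csf1r, Mertk and Mrc1 averaged lower, and the days overlapped for each but Fcgr1. These 4 sums, with macrophage markers among them, were separate between day 3 and day 1, at the limit of an exact two-sided permutation test with 5 and 3 libraries, p = 0.0357 (adjusted p = 0.116 over 13 marker lists). For neutrophil markers the days overlapped (p = 0.25 by the same exact permutation test, 0.325 adjusted). The most abundant adipocyte markers were Car3, with means of 8.74 CPM at day 3 and 2.26 CPM at day 1, and Lipe, with means of 3.12 CPM at day 3 and 4.76 CPM at day 1. The adipocyte sums overlapped between the days (p = 0.214 by the same exact permutation test, 0.325 adjusted). The part of these cells in the values above was not tested.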

How the data were processed

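The authors deposited raw counts per gene for 8 libraries. Per the file headers, featureCounts 1.6.0 was run on the Ensembl release 106 annotation of GRCm39, with no option for strand, read pairs or reads with several positions. The submitters' processing notes name Trimmomatic and DESeq2, with no version. No aligner is named in these sources. Between 73.0% and 86.0% of counts from 2 to 20 were even, so pairs were probably counted per read and the counts overstate fragments. Without strand, a gene and an overlapping partner cannot be told apart. A count of 3, taken as the floor, is 0.0501 to 0.0755 CPM, for counting error only. Exon length in bases (an other-type column) was deposited in the same table.

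Symbols came from a name table (52081 of 55414 genes). Genes passing filterByExpr (minimum count 10) were scaled by TMM and tested with edgeR 4.0.16 (quasi-likelihood F test, two-sided, Benjamini-Hochberg over all genes, threshold 0.05) in R 4.3.3. Fold changes are log2, day 3 over day 1, with SE from the F statistic. Alternatives used DESeq2 1.42.0, limma 3.58.1 voom, RLE or library-total scaling, no filter, a stricter filter (1 CPM in every library of 1 day, mean of 5 CPM), halved counts, libraries left out, and letters as blocks. The letters of the columns differ in part from those of the alignments in the recorded command, so they name libraries only. Fits were tested on simulated data. The genes and lists were chosen with earlier results of these data known. Genes named were all 10, up to 4 per list by p under 0.05, or else its 2 most abundant, and the 3 closest patterns for Nr1h3, Pparg, Abca1 and Npc2. The values of 1 gene that this rule names are not reported here; it stays in the counts of its list.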

Additional observations from a re-analysis of the deposited data

Results flagged for a closer look

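All 5 flagged values came from day 3 b, whose gap to the nearest of the other day 3 libraries was large against the range of that day. Among 37 groups of 5 values examined, chance flags about 1 in 20. Abca1 was at 362 CPM in day 3 b and at 266 to 275 CPM in the other day 3 libraries. The ratio of Abca1 to Abcg1 per length was 0.552 there and 0.203 to 0.285 in the others. Neutrophil markers summed to 3773 CPM there and to 451 to 680 CPM in the others. Keratinocyte markers summed to 42.8 CPM there and to 1.28 to 7.60 CPM in the others, and dendritic cell markers to 158 CPM and to 54.9 to 70.6 CPM. Without day 3 b the log2 fold change of Abca1 was 0.38 ± 0.16 (adjusted p = 0.308 by edgeR).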

How the results depend on the processing

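Of the 10 genes, 0 were called under every alternative except no filter on low counts, which called 1, Abcg1. Nr1h3 had a log2 fold change of 0.049 without day 1 a, 0.024 without day 1 b, 0.0088 without day 3 c and 0.17 without day 1 a and day 3 b together, against -0.12 with all libraries, and ran from -0.38 to 0.049 with 1 library left out. Npc1 ran from -0.16 to 0.12, above 0 without day 1 c (0.12), day 3 c (0.029) or day 3 d (0.0043). The other 8 genes kept their sign in all alternatives run. With 1 library left out, day ranges did not overlap for 3 to 5 of the 10, and for 16.3% to 24.4% of all genes. Without day 1 a and day 3 b together they did not overlap for 5, and for 28.6% of all genes tested. This check was added after seeing the data. Of the pathway lists, 0 genes were called in the main test (0.013% of all genes), 5 by DESeq2 (6.64%) and 1 by limma voom (5.37%). There were 7 with no filter (3.5% of all genes) and 1 with the stricter filter (1.79%). Halved counts called 1, and fits with 1 library left out called 0 to 1, with no share of all genes at hand. Whether these counts differ from those of other genes was not tested. The replicate block on letters a to c called 0 of the 10 genes and 0 of the lists, as did the same 6 libraries without it. Same-letter deviations correlated at 0.09, 0.03 and -0.05. The column letters differ in part from those of the alignments. Neither this check nor the replicate block can therefore show whether libraries were paired. Ppard was not tested under the stricter filter. No marker list was called in any setting. The smallest unadjusted p that the exact permutation test can give with all libraries is 0.0357. Adjusted over 13 lists, it falls under 0.05 only if most lists reach it, so that test too had little room to call any. With 1 library left out there are fewer splits and the smallest p lies above 0.05. No list could be called in those settings, so they show nothing about the markers. The order of levels per length at day 3 was the same in TPM. Causes of these shifts were not tested. With 3 and 5 pools and between 56 and 438 counts for Rxra at day 1, spread between libraries and low counts limit what the low receptors can show.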
